A study of Mus musculus with 9 samples.

Results

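A set of 8 genes encoding costimulatory and inhibitory receptors of lymphocytes was followed across 3 populations of innate lymphocytes sorted from the small-intestinal epithelium of mice. They were chosen by symbol, each through the row of the array table that carries its symbol, and all 8 were found among the 19938 genes measured. Icos, Cd28, Ctla4, Pdcd1 and Btla belong to the CD28 family, whereas Lag3, Havcr2 and Klrg1 encode inhibitory receptors of other structure, so the 8 form a functional set and not 1 protein family. Each gene had 1 row of its own and no row shared with another symbol.

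The cells came from the small intestine of NOD SCID mice aged 8 to 10 weeks, which lack mature T and B cells, and all 3 populations shared this background. Per the series' design text, CD3- CD45+ cells were sorted to a purity over 98% as Ly49E+CD8aa+ cells, Ly49E+CD8aa- cells and Ly49E-CD8aa+ cells. Each population was measured on 3 arrays numbered as biological replicates. Ly49E is a lectin-like receptor known from NK cells, encoded by Klra5, and CD8aa is a homodimer made of CD8 alpha, the product of Cd8a. How many mice each array pooled is not stated in the labels. The p-values weigh differences against the spread between these arrays, which may be partly technical. No treatment was applied.

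CD28-family receptors are membrane proteins with an immunoglobulin domain that bind ligands on neighbouring cells, of the B7 type for all of these members but BTLA. In T cells, CD28 and ICOS add a stimulatory signal, in large part through phosphatidylinositol 3-kinase, to that of the antigen receptor. CTLA-4 binds the same B7 ligands as CD28 and restrains it, and PD-1 and BTLA recruit tyrosine phosphatases. LAG-3 binds MHC class II, TIM-3 (Havcr2) binds galectin 9 among other ligands, and KLRG1 binds E-cadherin, the adhesion molecule of epithelial cells. ICOS and KLRG1 are also known as surface proteins of group 2 innate lymphoid cells.

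The transcripts of the sort markers largely followed the labels. Klra5 averaged 11.40 in Ly49E+CD8aa+ cells, 11.43 in Ly49E+CD8aa- cells and, with its arrays between 5.47 and 7.31, 6.59 in Ly49E-CD8aa+ cells (log2 expression), although its row is open to cross-hybridisation with related Ly49 genes. Cd8a averaged 12.55 in Ly49E+CD8aa+ cells, 11.42 in Ly49E+CD8aa- cells and 12.58 in Ly49E-CD8aa+ cells, so the CD8aa- cells kept a high level of the transcript. Ptprc, which encodes CD45, lay between 11.74 and 11.92 on all 9 arrays. Cd3e, a chain of the CD3 complex against which the cells were sorted, was high as RNA, with means of 11.75, 10.70 and 11.67 in the same order. Values are log2 expression, on which 1 unit is a 2-fold difference, and the 25th percentile of gene values on the arrays lay between 4.67 and 4.79. No calls of detection were used, so a value near that level is no sign that a transcript was missing. In sorted populations measured in bulk, fewer cells that carry a transcript and less of it per cell cannot be told apart.

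Icos, Cd28 and Ctla4 were much higher in Ly49E+CD8aa- cells than in either CD8aa+ population, and Klrg1 differed the same way by less. Lag3 went the other way by a small amount between the Ly49E+ populations. No member passed the test between Ly49E+CD8aa+ and Ly49E-CD8aa+ cells. The moderated F test over the 3 populations (limma, Benjamini-Hochberg adjusted p under 0.05) was passed by 5 of the 8 members, against 2.03% of all genes.

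**Figure D1:**
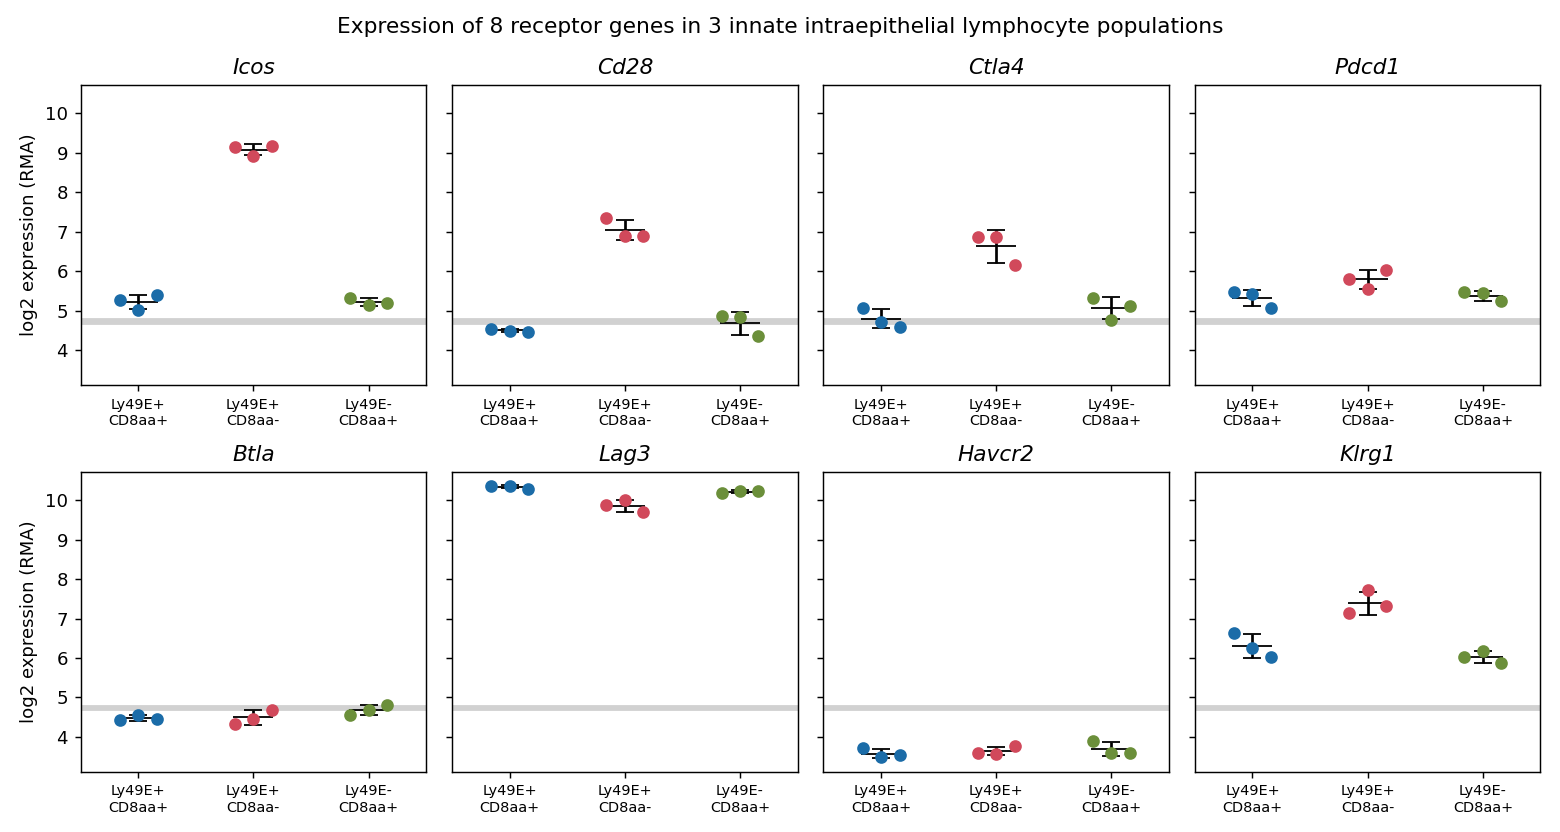
Log2 expression of the 8 receptor genes, 1 panel per gene, with 1 point per array, a bar for the mean and whiskers for the SD of 3 arrays in Ly49E+CD8aa+ cells, Ly49E+CD8aa- cells and Ly49E-CD8aa+ cells. The grey band is the range of the arrays' 25th percentile of gene values (4.67 to 4.79); Icos, Cd28, Ctla4 and Klrg1 stand above both CD8aa+ populations in Ly49E+CD8aa- cells, and Btla and Havcr2 lie near or below the band on all arrays.

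Icos encodes the inducible costimulator. It read 5.26, 5.02 and 5.39 in Ly49E+CD8aa+ cells, 9.15, 8.93 and 9.17 in Ly49E+CD8aa- cells, and 5.32, 5.14 and 5.20 in Ly49E-CD8aa+ cells (log2 expression). All 3 Ly49E+CD8aa- arrays were high and the other 6 arrays lay together, with no overlap between the 2 levels. The level was 14.5-fold lower in Ly49E+CD8aa+ cells than in Ly49E+CD8aa- cells, a log2 difference of -3.86 (SE 0.108, adjusted p = 3.25e-07 by limma, n = 3 arrays each). Ly49E+CD8aa- cells exceeded Ly49E-CD8aa+ cells by 3.86 as well (SE 0.108, adjusted p = 2.24e-07). By absolute size these were the differences ranked 14 and 17 of 19938 genes.

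Cd28 encodes the founding costimulatory receptor of the family. It read 4.55, 4.50 and 4.45 in Ly49E+CD8aa+ cells, 7.34, 6.91 and 6.88 in Ly49E+CD8aa- cells, and 4.86, 4.83 and 4.35 in Ly49E-CD8aa+ cells. Again the Ly49E+CD8aa- arrays alone were high, while the CD8aa+ arrays lay near the 25th percentile and overlapped each other. The log2 difference was -2.54 (SE 0.157, adjusted p = 2.88e-05 by limma) for Ly49E+CD8aa+ against Ly49E+CD8aa- cells, a level 5.83-fold lower. For Ly49E+CD8aa- against Ly49E-CD8aa+ cells it was 2.36 (SE 0.157, adjusted p = 5.14e-05 by limma), a level 5.13-fold higher.

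Ctla4 encodes the inhibitory counterpart of CD28 and read 5.08, 4.72 and 4.60 in Ly49E+CD8aa+ cells, 6.87, 6.87 and 6.15 in Ly49E+CD8aa- cells, and 5.32, 4.76 and 5.11 in Ly49E-CD8aa+ cells. Replicate 3 of the Ly49E+CD8aa- cells was lower than the others, but still above all 6 CD8aa+ arrays. Ly49E+CD8aa+ cells differed from Ly49E+CD8aa- cells by -1.83 (SE 0.222, adjusted p = 0.00282 by limma), and Ly49E+CD8aa- cells from Ly49E-CD8aa+ cells by 1.57 (SE 0.222, adjusted p = 0.00578 by limma). These are levels 3.56-fold lower and 2.97-fold higher. In the mouse gene annotation Cd28, Ctla4 and Icos follow one another on chromosome 1 with no other protein-coding gene between them, and they were the 3 members with the largest differences in both comparisons.

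The bases upstream of the annotated start of Ctla4 are shown as those of a member of this chromosome 1 group, beside those of Pdcd1, a CD28-family gene on the same chromosome that did not pass the test. RefSeq promoter sequences (GRCm38.p6) were matched for 4 of the 8 members, Ctla4, Pdcd1, Btla and Havcr2, and the 250 bases before the start are printed 5′ to 3′ in the direction of transcription. They lie at chr1:60908775-60909024 on the plus strand for Ctla4 and at chr1:94052554-94052803 on the minus strand for Pdcd1. Capitals mark matches to the motifs searched.
Ctla4: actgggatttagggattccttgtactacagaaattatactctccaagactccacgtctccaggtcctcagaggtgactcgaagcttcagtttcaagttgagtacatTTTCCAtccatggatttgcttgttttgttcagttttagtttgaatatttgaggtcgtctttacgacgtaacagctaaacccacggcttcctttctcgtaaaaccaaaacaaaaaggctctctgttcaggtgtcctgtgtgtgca
Pdcd1: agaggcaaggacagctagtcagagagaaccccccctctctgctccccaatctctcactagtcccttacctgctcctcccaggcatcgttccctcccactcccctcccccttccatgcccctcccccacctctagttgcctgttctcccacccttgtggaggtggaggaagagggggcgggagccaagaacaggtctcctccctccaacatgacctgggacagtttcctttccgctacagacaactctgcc

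The motifs were searched as exact letters on both strands, and no match overlapped another. The NFAT core TGGAAA occurred once upstream of Ctla4, on the minus strand from base -144 to -139 before the start, and in 18.6% of 32841 upstream windows of the same length. Runx (TGTGGT, in 14.0% of windows) occurred once each upstream of Btla and Havcr2, and AP-1 (TGANTCA, in 6.75%) once upstream of Havcr2. T-box (GGTGTGA, in 3.33%), the site AGATAA of zinc finger factors such as Gata3 (in 9.99%) and the NF-kB consensus (in 0.14%) had no match in the windows of these 4 genes, and the Pdcd1 window held none of the 6 motifs. A match is a description of the letters and not of binding.

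Klrg1 encodes a lectin-like inhibitory receptor of NK cells, T cells and group 2 innate lymphoid cells. It read 6.63, 6.25 and 6.02 in Ly49E+CD8aa+ cells, 7.14, 7.71 and 7.31 in Ly49E+CD8aa- cells, and 6.03, 6.17 and 5.88 in Ly49E-CD8aa+ cells. The Ly49E+CD8aa- arrays stood above the rest without overlap, with a smaller gap than for Icos or Cd28. The log2 difference was 1.36 (SE 0.180, adjusted p = 0.00394 by limma) between Ly49E+CD8aa- and Ly49E-CD8aa+ cells. Between Ly49E+CD8aa+ and Ly49E+CD8aa- cells it was -1.09 (SE 0.180, adjusted p = 0.0163 by limma). The call between the Ly49E+ populations was lost with the 6 arrays of the comparison alone (adjusted p = 0.0894 by limma), with every row of the table tested (0.0647), and without Ly49E+CD8aa+ replicate 2 (0.0757), Ly49E+CD8aa+ replicate 3 (0.0649) or Ly49E+CD8aa- replicate 3 (0.0573).

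Lag3 encodes a receptor that binds MHC class II and restrains T cell activation. It read 10.36, 10.36 and 10.29 in Ly49E+CD8aa+ cells, 9.87, 10.00 and 9.69 in Ly49E+CD8aa- cells, and 10.17, 10.23 and 10.23 in Ly49E-CD8aa+ cells. The populations did not overlap in any pair, with Ly49E+CD8aa+ highest and Ly49E+CD8aa- lowest. Its mean over the arrays stood at percentile 96.5 of gene values, as a place on the array and not as an abundance against other genes.

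Ly49E+CD8aa+ cells exceeded Ly49E+CD8aa- cells in Lag3 by 0.48 (SE 0.0827, adjusted p = 0.0196 by limma), a level 1.40-fold higher. Ly49E+CD8aa- cells were below Ly49E-CD8aa+ cells with a log2 difference of -0.36 (SE 0.0827, adjusted p = 0.0722 by limma), which did not pass. The first of these calls was lost with the 6 arrays alone (adjusted p = 0.0848 by limma), with every row tested (0.0573), without any of the 3 Ly49E+CD8aa+ arrays (0.0778, 0.0862 and 0.0575 without replicates 1, 2 and 3) and without Ly49E+CD8aa- replicate 1 (0.068). The second passed after a further quantile normalization (0.0356) and without Ly49E+CD8aa- replicate 2 (0.0396).

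Pdcd1 encodes PD-1. It read 5.46, 5.41 and 5.08 in Ly49E+CD8aa+ cells, 5.81, 5.55 and 6.03 in Ly49E+CD8aa- cells, and 5.46, 5.45 and 5.24 in Ly49E-CD8aa+ cells. The Ly49E+CD8aa- arrays lay above the other 6 by a narrow margin. The log2 differences of -0.48 between Ly49E+CD8aa+ and Ly49E+CD8aa- cells and 0.41 between Ly49E+CD8aa- and Ly49E-CD8aa+ cells (SE 0.142 each) did not pass (adjusted p = 0.22 and 0.299 by limma), with 95% intervals from -0.80 to -0.16 and from 0.09 to 0.73.

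Btla encodes an inhibitory receptor for HVEM (Tnfrsf14), a member of the TNF receptor family. Its arrays read 4.42, 4.55 and 4.45 in Ly49E+CD8aa+ cells, 4.34, 4.45 and 4.69 in Ly49E+CD8aa- cells, and 4.55, 4.68 and 4.82 in Ly49E-CD8aa+ cells. Havcr2 read 3.71, 3.48 and 3.55 in Ly49E+CD8aa+ cells, 3.60, 3.58 and 3.76 in Ly49E+CD8aa- cells, and 3.91, 3.60 and 3.60 in Ly49E-CD8aa+ cells. Both genes overlapped between all populations and stayed at or below the arrays' 25th percentile of gene values, with the exception of Ly49E-CD8aa+ replicate 3 for Btla. Their log2 differences ran from -0.21 to -0.02 for Btla and from -0.12 to -0.06 for Havcr2 over the 3 comparisons, with adjusted p from 0.607 to 1 and from 0.9 to 1 by limma.

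Between the Ly49E+ populations, 4 of 8 members were lower in Ly49E+CD8aa+ cells, against 1.22% of all genes, and 1 of 8 was higher, against 0.476%. The arrays did not overlap for 6 of 8 members, against 12.9% of all genes. Between Ly49E+CD8aa- and Ly49E-CD8aa+ cells, 4 of 8 were higher, against 1.35%, and 0 were lower, against 0.802%, by limma. With an unadjusted p under 0.05 in either direction, 6 of 8 members passed there, against 10.4% of all genes, and 6 of 8 between the Ly49E+ populations, against 9.43%. In 6 of 8 the arrays did not overlap, against 12.7% of genes. These comparisons share the Ly49E+CD8aa- arrays, so their values are not independent. The median difference of the members was -0.78 for Ly49E+CD8aa+ against Ly49E+CD8aa- cells, beside 0.03 over all genes, and 0.89 for Ly49E+CD8aa- against Ly49E-CD8aa+ cells, beside -0.02 over all genes.

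**Figure D2:**
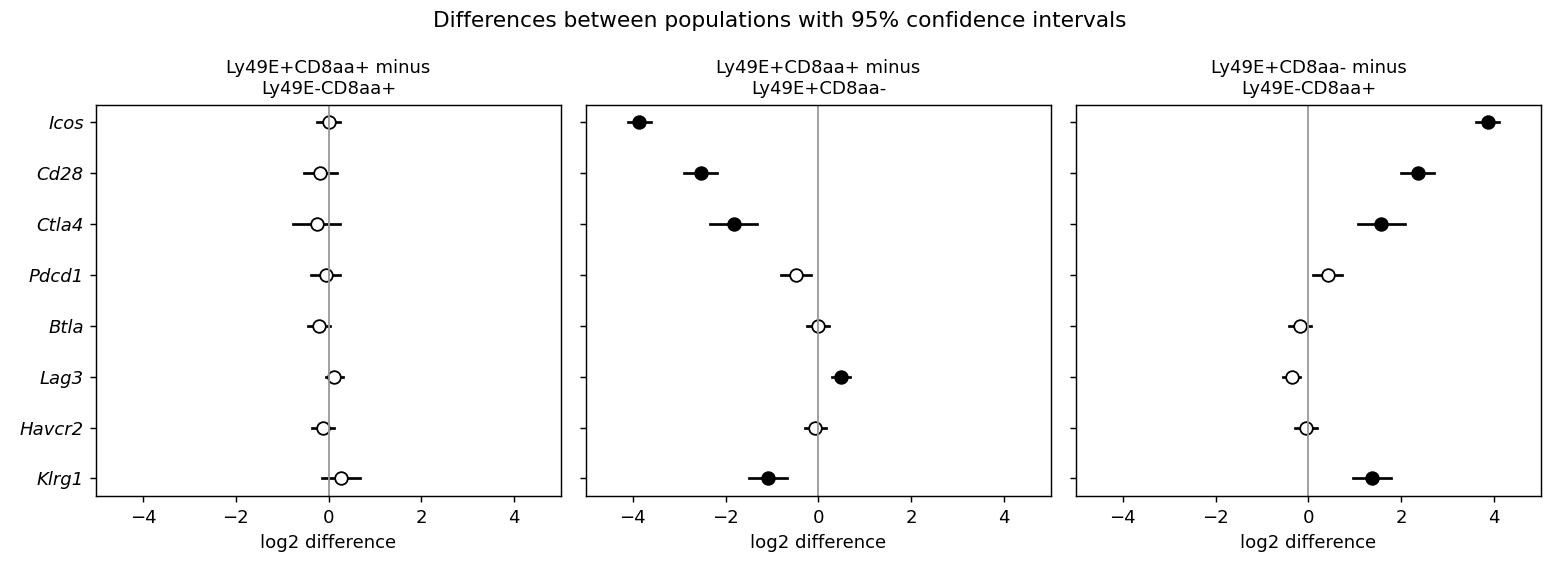
Log2 differences of the 8 receptor genes (first-named minus second-named population) with 95% confidence intervals from the limma fit to 9 arrays, 1 panel per comparison; filled points passed the adjusted p threshold of 0.05. Icos had the widest separation in the 2 comparisons that involve Ly49E+CD8aa- cells (-3.86 and 3.86), and all points are open between Ly49E+CD8aa+ and Ly49E-CD8aa+ cells.

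Between the CD8aa+ populations, which differ in Ly49E, no receptor passed. Of 8 members, 0 were higher, against 0.0201% of all genes, and 0 lower, against 0.11%, by limma, and 0 had an unadjusted p under 0.05, against 4.18% of all genes. At these shares, 0 of 8 is near the background. Lag3 alone did not overlap, 1 of 8 members against 6.25% of genes, with a log2 difference of 0.12 and a 95% interval from -0.06 to 0.31. The intervals of the other members bound the size of a difference that these arrays could miss. They ran from -0.24 to 0.25 for Icos, from -0.54 to 0.17 for Cd28, from -0.76 to 0.24 for Ctla4, from -0.38 to 0.25 for Pdcd1, from -0.45 to 0.03 for Btla, from -0.36 to 0.11 for Havcr2 and from -0.13 to 0.68 for Klrg1.

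The order of levels was the same for Icos, Cd28, Ctla4, Klrg1 and Pdcd1 in that Ly49E+CD8aa- cells came first. For the first 4 the step to the next population passed the test, and the step between the CD8aa+ populations did not. For Pdcd1 neither step passed. For Lag3, Ly49E+CD8aa+ cells came first and Ly49E+CD8aa- cells last, and of the 3 differences the one between these ends passed.

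Ligands were read from a list of 13 genes, in which MHC class II, the ligand of LAG-3, was not included. Of the 13, 0 passed in any comparison by limma, and with an unadjusted p under 0.05 there were 0 between Ly49E+CD8aa+ and Ly49E-CD8aa+ cells (4.18% of all genes), 3 between the Ly49E+ populations (9.43%) and 2 between Ly49E+CD8aa- and Ly49E-CD8aa+ cells (10.4%). Their log2 differences stayed between -0.23 and 0.24. Icosl, the ligand of ICOS, averaged 7.72, 7.95 and 7.71 in Ly49E+CD8aa+ cells, Ly49E+CD8aa- cells and Ly49E-CD8aa+ cells. Cd274, which encodes PD-L1, averaged 8.51, 8.66 and 8.47, Tnfrsf14 averaged 8.70, 8.75 and 8.72, and Lgals9, which encodes galectin 9, averaged 10.60, 10.46 and 10.52 in the same order. Cd80 and Cd86, the B7 ligands of CD28 and CTLA-4, stayed between 4.16 and 4.76 on all arrays. Cdh1, the ligand of KLRG1, averaged 10.44, 10.33 and 10.27, and is also an epithelial transcript.

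A list labelled other inhibitory receptors held 12 genes, and the label names the list and not the known action of each gene. Among these 12, Klrc1, which encodes NKG2A and is open to cross-hybridisation with its relatives, differed most. It averaged 4.13 in Ly49E+CD8aa+ cells, 9.17 in Ly49E+CD8aa- cells and 4.09 in Ly49E-CD8aa+ cells, with differences of -5.05 (adjusted p = 7.07e-07 by limma) and 5.08 (5.68e-07). It was the 1 of 12 that fell in Ly49E+CD8aa+ against Ly49E+CD8aa- cells, where 1.22% of all genes did. Cd160, a receptor that shares the ligand HVEM with BTLA, averaged 10.35, 10.64 and 9.78 in the order above and was higher in Ly49E+CD8aa- cells than in Ly49E-CD8aa+ cells by 0.86 (SE 0.133, adjusted p = 0.0102 by limma). Havcr1, which encodes TIM-1, was lower there, with a difference of -0.54 (SE 0.0965, adjusted p = 0.0206 by limma). In that comparison 2 of 12 were thus higher and 1 lower, against 1.35% and 0.802% of all genes. Lair1, a collagen receptor, read 5.19, 6.12 and 6.69 on average and did not pass in any comparison of a pair of populations, with adjusted p = 0.0522 by limma between Ly49E+CD8aa+ and Ly49E-CD8aa+ cells. It did pass the F test over the 3 populations (adjusted p = 0.0179 by limma).

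Of 6 costimulators of the TNF receptor family, Tnfrsf9, which encodes 4-1BB, passed alone, and its means had the order of those of Lag3. It averaged 10.05 in Ly49E+CD8aa+ cells, 8.91 in Ly49E+CD8aa- cells and 9.55 in Ly49E-CD8aa+ cells. Ly49E+CD8aa+ cells exceeded Ly49E+CD8aa- cells by 1.15 (SE 0.124, adjusted p = 0.00136 by limma), and Ly49E+CD8aa- cells differed from Ly49E-CD8aa+ cells by -0.65 (SE 0.124, adjusted p = 0.0302 by limma). Of all genes, 0.476% were called higher in the first comparison and 0.802% lower in the second.

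Among the signalling and trafficking partners, Pik3cd, the catalytic subunit of phosphatidylinositol 3-kinase in leukocytes, averaged 10.01 in Ly49E+CD8aa+ cells, 9.49 in Ly49E+CD8aa- cells and 9.99 in Ly49E-CD8aa+ cells. Its differences of 0.52 and -0.50 (SE 0.0911 each, adjusted p = 0.0232 and 0.0241 by limma) made it the 1 of 14 measured partners that was higher in Ly49E+CD8aa+ cells than in Ly49E+CD8aa- cells, where 0.476% of all genes were. Ptpn6, which encodes the phosphatase SHP-1 recruited by inhibitory receptors, averaged 10.25, 10.26 and 10.81 in the order above. It was lower in Ly49E+CD8aa- cells than in Ly49E-CD8aa+ cells, with a difference of -0.55 (SE 0.115, adjusted p = 0.0453 by limma), so that 2 of 14 partners were lower there, against 0.802% of all genes.

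Of 13 measured transcription factors known to regulate such receptors in T cells or innate lymphoid cells, 5 were lower and 1 higher in Ly49E+CD8aa+ cells than in Ly49E+CD8aa- cells. Over all genes these shares were 1.22% and 0.476%. Eomes, a T-box factor, differed by -2.83 (adjusted p = 0.0002 by limma), Rora, a nuclear receptor of innate lymphoid cells, by -2.11 (2.15e-05), and Maf by -0.75 (0.000584). Irf4, a factor induced by antigen receptor signals, differed by -0.69 (0.014), Gata3 by -0.51 (0.0366), and Prdm1, which encodes Blimp-1, by 0.51 (0.0121). Between Ly49E+CD8aa- and Ly49E-CD8aa+ cells 5 were higher and 1 lower, against 1.35% and 0.802% of all genes. These were Eomes (2.57), Rora (2.13), Maf (0.99), Bcl6 (0.74) and Gata3 (0.47) on the higher side and Prdm1 (-0.53) on the lower side, with adjusted p from 2.29e-05 to 0.0456. Foxp3, the factor of regulatory T cells, in which Ctla4 and Icos are well known, lay between 5.59 and 5.82 on all arrays.

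Over all 58 measured ligands, receptors, partners and factors (of 62 listed, with 4 not analysed here), 0 passed between Ly49E+CD8aa+ and Ly49E-CD8aa+ cells by limma, and 8 of 58 had an unadjusted p under 0.05, against 4.18% of all genes. Between Ly49E+CD8aa+ and Ly49E+CD8aa- cells 3 of 58 were higher, against 0.476% of all genes, and 6 lower, against 1.22%. The median of the 58 was 0.00, beside 0.03 over all genes. Between Ly49E+CD8aa- and Ly49E-CD8aa+ cells 7 were higher, against 1.35% of all genes, and 5 lower, against 0.802%. The median there was -0.04, beside -0.02 over all genes.

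**Figure D3:**
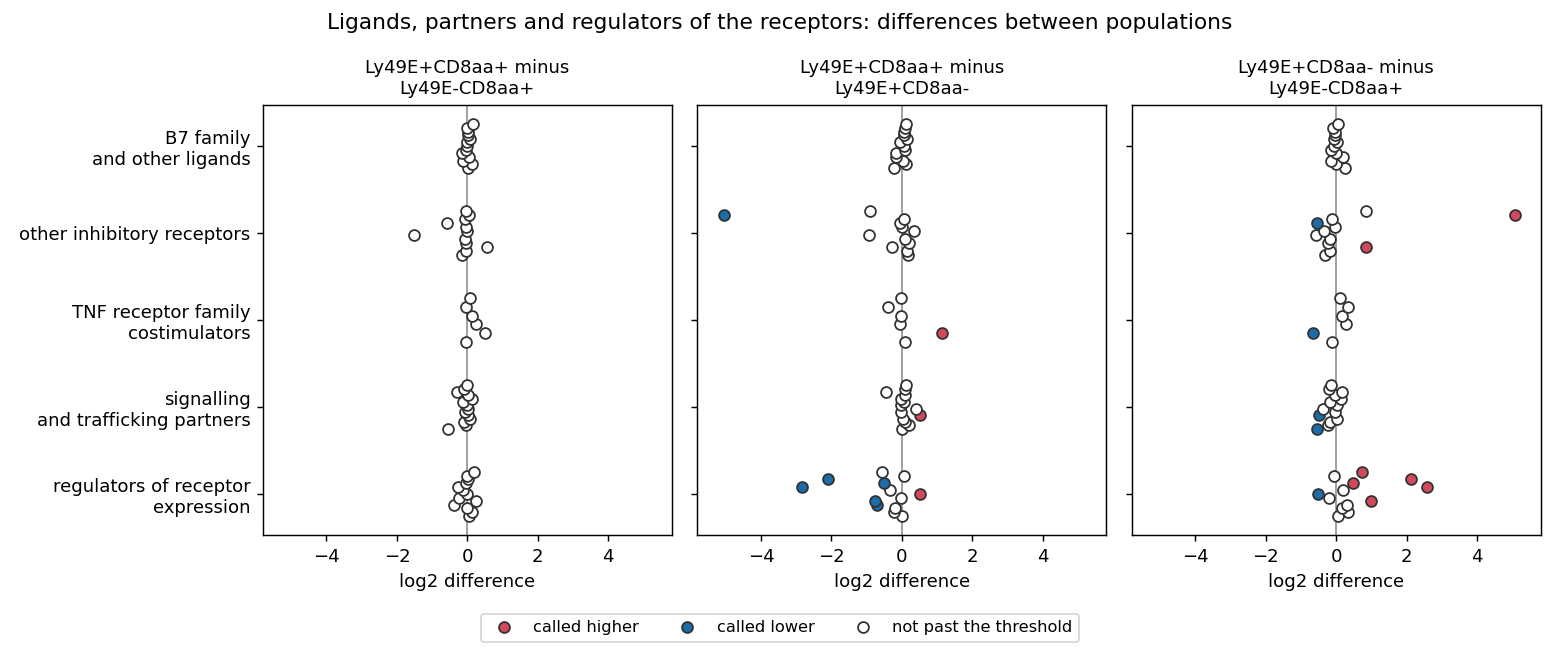
Log2 differences (first-named minus second-named population) of ligands, other inhibitory receptors, TNF receptor family costimulators, signalling partners and regulators of the 8 receptors, 1 point per gene and 1 panel per comparison, with genes spread vertically within a list for legibility. Coloured points passed the adjusted p threshold of 0.05; the 13 ligands lie near 0 in all panels, while regulators reach -2.83 and 2.57 and Klrc1 reaches -5.05 and 5.08.

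Markers of other cell types were read beside these results. Of all genes, 0.476% were called higher and 1.22% lower in Ly49E+CD8aa+ against Ly49E+CD8aa- cells. In Ly49E+CD8aa- against Ly49E-CD8aa+ cells these shares were 1.35% and 0.802%. Of 10 T cell markers, 2 were higher and 1 lower in Ly49E+CD8aa+ against Ly49E+CD8aa- cells, and 2 were higher and 1 lower in Ly49E+CD8aa- against Ly49E-CD8aa+ cells. Cd8b1 averaged 5.28 in Ly49E+CD8aa+ cells, 8.34 in Ly49E+CD8aa- cells and 5.30 in Ly49E-CD8aa+ cells, the same direction as Icos and Cd28. Cd3e went the other way, with differences of 1.05 and -0.98 (adjusted p = 0.0263 and 0.0325 by limma). Themis was higher in Ly49E+CD8aa+ against Ly49E+CD8aa- cells by 1.28 (adjusted p = 0.0373 by limma), and Lat in Ly49E+CD8aa- against Ly49E-CD8aa+ cells by 0.60 (adjusted p = 0.013 by limma). The mean level of the T cell list was 8.00 to 8.05 in Ly49E+CD8aa+ arrays, 8.02 to 8.29 in Ly49E+CD8aa- arrays and 7.82 to 7.85 in Ly49E-CD8aa+ arrays. Of 4 regulatory T cell markers other than Ctla4, Il2ra alone passed (-3.41 and 3.50). Of 6 measured markers of group 2 and group 3 innate lymphoid cells other than Klrg1, 5 were lower in Ly49E+CD8aa+ cells against Ly49E+CD8aa- cells. They were Il7r (-5.44), Il23r (-3.72), Rora (-2.11), Kit (-1.17) and Gata3 (-0.51). The same 5 were higher in Ly49E+CD8aa- cells than in Ly49E-CD8aa+ cells. Il17rb did not pass in either comparison, with differences of -0.02 and -0.08 (adjusted p = 0.968 and 0.737 by limma). Between the CD8aa+ populations, Il7r alone of the 6 passed, where 0.11% of all genes were called lower. It was lower in Ly49E+CD8aa+ cells than in Ly49E-CD8aa+ cells, with a difference of -1.52 (SE 0.192, adjusted p = 0.0303 by limma). The list of 6 pools both groups, so its count does not tell them apart. The mean of these 6 ran from 6.33 to 6.43, from 8.40 to 8.65 and from 6.58 to 6.63 in Ly49E+CD8aa+ arrays, Ly49E+CD8aa- arrays and Ly49E-CD8aa+ arrays. Of 10 NK cell and ILC1 markers, 4 were lower and 1 higher in Ly49E+CD8aa+ cells than in Ly49E+CD8aa- cells. The lower ones were Klrk1 (-5.46), Ncr1 (-5.44), Klre1 (-4.01) and Eomes (-2.83), and the higher one was Prf1 (0.58). The same 4 were higher and Prf1 lower in Ly49E+CD8aa- cells than in Ly49E-CD8aa+ cells. The mean of the 10 ran from 7.10 to 7.21, from 8.76 to 8.99 and from 7.20 to 7.27 in the same order of populations. Eomes, Rora and Gata3 also counted among the transcription factors above, so these lists are not separate results. The part of these cell types in the differences of the members was not tested.

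Of 15 dendritic and myeloid cell markers, 5 were lower in Ly49E+CD8aa+ cells and 6 in Ly49E+CD8aa- cells, each against Ly49E-CD8aa+ cells, and 0 were higher. Of all genes, 0.11% and 0.802% were lower in these comparisons. The 5 were Cybb (-2.48), Siglech (-1.98), Cd209d (-1.87), Mpeg1 (-1.75) and Ly6d (-1.28). The 6 were the same genes and Clec9a (-0.73). The other 10 and 9 did not pass, and Itgax had a difference of 0.35 in Ly49E+CD8aa- against Ly49E-CD8aa+ cells (adjusted p = 0.447 by limma). The mean over the 15 was 5.66 to 5.77 in Ly49E+CD8aa+ arrays, 5.65 to 5.69 in Ly49E+CD8aa- arrays and 6.37 to 6.77 in Ly49E-CD8aa+ arrays. The 6 enterocyte markers averaged 8.49 to 8.90, 8.20 to 8.89 and 8.26 to 8.91 in the same order, with the highest value in replicate 1 of each population. The 4 measured B cell markers averaged 5.61 to 5.78, 5.56 to 5.71 and 5.62 to 5.87.

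For each member that passed the F test, the genes most like it over the 9 arrays were found by Pearson correlation among genes whose values spanned at least 1 log2 unit. These correlations are descriptions over 9 arrays that fall into populations, so they mostly follow the population levels. Icos was most like Il18r1, an IL-18 receptor gene (r = 0.999), Tmem176b (0.998) and Cd8b1 (0.997). Cd28 was most like the integrin gene Itgal (r = 0.995), the cytokine gene Csf2 (0.995) and Cd8b1 (0.993). Ctla4 was most like Sh2d1a, which encodes the adaptor SAP (r = 0.977), Smad3 (0.97) and Nfkbia (0.969), and replicate 3 of the Ly49E+CD8aa- cells read lowest of its population in each of them too.

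Klrg1 was most like S100a6 (r = 0.968), Rasgef1b (0.968) and Klrc2, which is open to cross-hybridisation (0.963). Lag3 was most like Tnfrsf9 (r = 0.966), Tsga10 (0.958) and Pdzk1 (0.951). The genes most like Lag3 were thus highest in Ly49E+CD8aa+ cells, with means of 10.05, 8.91 and 9.55 for Tnfrsf9, 7.34, 6.54 and 7.10 for Tsga10 and 10.27, 8.97 and 9.79 for Pdzk1 in Ly49E+CD8aa+ cells, Ly49E+CD8aa- cells and Ly49E-CD8aa+ cells.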

How the data were processed

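Total RNA of sorted cells was measured on 9 Affymetrix Mouse Gene 1.0 ST arrays, after amplification with a whole-transcriptome kit, per the series' design text. The deposited values were log2 expression from RMA, per the submitters' processing notes; its version, build and annotation are not given in these sources. Of 35556 rows, 21789 carried 1 platform symbol, 21698 of them matched to a current gene record, and the row with the highest mean stood for each of 19938 genes. No filter on dim rows was used, and 6 of the 8 members lay above the 25th percentile of gene means. A mean per population was fitted to all 9 arrays with limma 3.58.1 (R 4.3.3), and differences were tested 2-sided with empirical Bayes moderation and Benjamini-Hochberg adjustment over all genes at 0.05. The number of arrays limits the precision; the median SE of a log2 difference was 0.0976. The fit was tested on simulated data.

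Members and lists were chosen with earlier results of these data known. The named genes were the 8 members, up to 6 called genes of each list and comparison by size, the 3 genes most like each member past the F test, and the sort markers; other named genes were chosen after their values were seen. Protein sequences were not used here. Alternatives tried were a fit to only the 6 arrays compared, filters on dim genes, further quantile normalization, median centring, an intensity trend, robust moderation, other handling of rows, a minimum difference of 1, a replicate block and leaving out each array.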

Additional observations from a re-analysis of the deposited data

How the results depend on the processing

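The calls of Icos, Cd28 and Ctla4 in both comparisons with Ly49E+CD8aa- cells, and of Klrg1 against Ly49E-CD8aa+ cells, passed in every alternative that tested them, up to 19 each, with no reversal. The 1 member higher in Ly49E+CD8aa+ cells than in Ly49E+CD8aa- cells became 0 with the 6 arrays of the comparison alone, with every row tested, with a minimum difference of 1, and without single arrays (0 to 1). The 4 members lower in that comparison, and the 4 higher in Ly49E+CD8aa- cells than in Ly49E-CD8aa+ cells, became 2 with genes above the median of gene means, a filter that leaves 3 of the 8 members, and the 5 members past the F test became 3. Without single arrays the 4 lower members ranged from 3 to 4 and those past the F test from 4 to 5. The count of 0 lower in the last comparison became 1 after a further quantile normalization and ranged from 0 to 1 without single arrays. With the replicate block the counts of members called stayed at 0, 1, 4 and 4, and 4 in place of 5 passed the F test. The block took the count of all genes lower in Ly49E+CD8aa+ cells than in Ly49E-CD8aa+ cells to 14 in place of 22. Deviations of same-numbered arrays correlated between -0.063 and 0.222 over genes and those of other numbers between -0.169 and 0.103. Deviations sum to 0 within a population, so a positive same-number value in itself lowers those of other numbers, and the ranges are not independent. The labels do not state whether a number marks shared handling, and the main fit held no block. The replicate 1 arrays did deviate together, at 0.127 to 0.222, against -0.169 to -0.022 with other numbers, a hint from the data and not the design. The cause of these changes was not tested, also where fewer arrays or genes entered the fit. Dim rows limit what can be said of Btla and Havcr2, and of Havcr1 among the other receptors.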

Other observations

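Some deposited values recurred exactly on several arrays. Of 19938 genes, 12062 (60.5%) had a value shared by at least 2 arrays. Among the receptors this held for Pdcd1 and Btla. Pdcd1 was at 5.46 in both Ly49E+CD8aa+ replicate 1 and Ly49E-CD8aa+ replicate 1. Btla was at 4.55 in both Ly49E+CD8aa+ replicate 2 and Ly49E-CD8aa+ replicate 1. The ligand gene Pdcd1lg2, which encodes PD-L2, stood at 6.72 on all 3 Ly49E-CD8aa+ arrays, so its SD there of 0 is not a measure of replicate error. It was chosen after its values were seen.

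Ceacam1, which encodes a proposed ligand of TIM-3, read 7.16, 6.39 and 6.56 in Ly49E+CD8aa+ cells, 7.44, 6.84 and 5.65 in Ly49E+CD8aa- cells, and 7.43, 6.60 and 6.01 in Ly49E-CD8aa+ cells. Replicate 1 was highest in each population, as it was for the mean of the enterocyte markers.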
